A study of Mus musculus with 6 samples.

Results

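Cytochrome P450 enzymes are the haem-containing monooxygenases named Cyp in the mouse. They were taken here as every gene of the deposited table whose symbol consists of Cyp, a family number, 1 subfamily letter and a gene number, which gave 93 of 32219 genes. Symbols with further letters, such as Cyp51, Cyp2ab1 and Cyp3a41a, fall outside that rule. The series holds poly(A) RNA-seq of mouse intestine in 6 libraries: wild type (WT) 1 to 3 and knockout (KO) 1 to 3. Its design text names the whole duodenum. The cell type label lists epithelial cells, immune cells and enteric neurons. The sources used here do not name the knocked-out gene, the cells that lost it, any treatment, or the age and sex of the mice, nor do they say that each library is a separate animal. All p-values thus cover only the variation among these libraries, some of which may be technical.

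P450 enzymes take electrons from the reductase Por, or in mitochondria from ferredoxin, and use them to insert an oxygen atom into a substrate. In the gut, members of families 1 to 3 oxidise drugs, plant compounds and pollutants on their way into the body. Family 4 and the 2J enzymes oxidise fatty acids and eicosanoids, and other members make or break down bile acids, steroid hormones, vitamin D and retinoic acid. Many are transcribed under nuclear receptors, among them the xenobiotic receptors PXR (Nr1i2) and CAR (Nr1i3), and under the aryl hydrocarbon receptor (Ahr).

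All values are on the scale of the deposited table, taken as log2(abundance + 1). The sources used here name neither the abundance unit nor a correction for transcript length, so no order of abundance among different genes is drawn. KO 1 lists 0 for every gene above 1 on chromosomes 2 to 9, X and M and on chromosome 19 beyond Tmem258. Zeros there were treated as missing, which left 25 of the 93 members with a usable value in KO 1. Where KO 1 has values, its linear abundances stood 2.12 times above the other libraries and were divided by that factor ("rescaled"). KO was compared with WT on the 5 libraries without KO 1. The labelled tissue was checked against position markers, 6 proximal and 6 distal. The 5 libraries held the ileal genes Fabp6 at 8.16 to 8.76 and Slc10a2 at 5.98 to 6.76 and the proximal genes Gata4 at 0.43 to 0.63, Lct at 1.08 to 2.01 and Gip at 0.27 to 1.22. KO 1 after rescaling held Gata4 at 5.19, Lct at 7.05, Gip at 4.02 and Fabp6 at 3.91. Not every listed marker followed. The proximal gene Slc40a1 was at 6.30 to 6.67 in the 5 libraries and 5.15 in KO 1, and the distal gene Slc51a at 6.86 to 7.21 and 6.54. The distal gene Slc10a1 was at 0.39 to 0.75 in the 5 libraries and 1.17 in KO 1. KO 1 does not cover the proximal genes Fabp1 (2.01 to 2.15 in the 5 libraries) and Cybrd1 (1.88 to 2.67). The same holds for the distal genes Fgf15 (5.02 to 5.84) and Slc51b (6.78 to 7.43). The 5 libraries go against the duodenum of the design text at Gata4, Lct, Gip, Fabp6 and Slc10a2, while Slc40a1 and Slc10a1 do not.

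Of the 93 members, 59 were above 0 in at least 2 of the 5 libraries and entered the test, and 34 did not. Among those 34, 19 were listed at 0 in all 5 libraries. They included Cyp7a1, the rate-limiting enzyme of the classic bile acid pathway in liver, Cyp26a1, a retinoic acid hydroxylase, and 16 of the drug and xenobiotic group, such as Cyp2b9, Cyp2c29 and Cyp3a16. A further 28 tested members stayed below 1 in every one of the 5 libraries, and 28 had a mean of 1 or more. The 28 with a mean of 1 or more are the genes plotted by library.

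**Figure D1:**
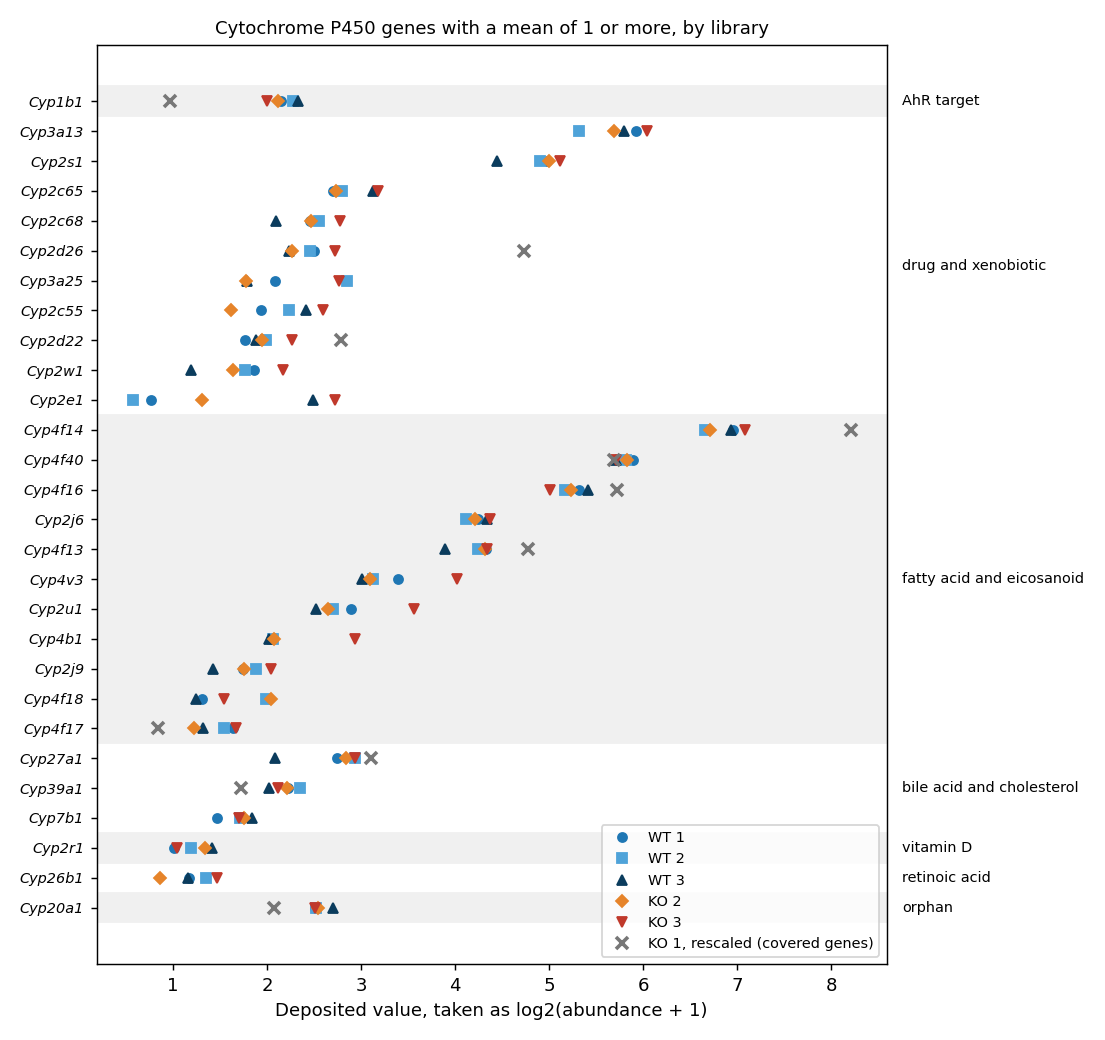
Values of the 28 members with a mean of 1 or more over the 5 libraries, on the log2 scale of the deposited table (horizontal axis), by gene and role group (vertical axis). Each symbol is 1 library, and crosses give KO 1 after rescaling for the 11 genes that it covers. KO 3 is the right-most of the 5 libraries in 18 of the 28 genes, and the crosses of Cyp2d26 and Cyp4f14 lie far to the right.

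Near-identical paralogs limit what a value can say about 1 gene. In 35 of the 93 members, over 10% of the 50-base stretches of the longest GENCODE transcript also occur in transcripts of another gene. Of the 28 members with a mean of 1 or more, 6 exceed that share. Cyp2c68 shares 43.3% (most with Cyp2c40), Cyp3a25 26.8% (Cyp3a59) and Cyp4f16 26.5% (Cyp4f37). Cyp2c65 shares 20.6% (Cyp2c66), Cyp2d26 10.5% and Cyp4b1 10.3%. The assignment of reads is thus uncertain for these genes. It is also uncertain for Cyp2c40 and Cyp2c69, both with a mean under 1, which share 72.1% and 54.8%.

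Promoter sequences are shown for the genes on which the results below turn. 4 members of the Cyp2c cluster on chromosome 19 are given because members with values above 2 and members near 0 lie side by side there, Cyp2d26 because it stood farthest above the other libraries in KO 1, and Cyp1b1 because it stood farthest below. Each line gives the bases before the RefSeq start, 5′ to 3′ on the gene's strand, in GRCm38.p6 coordinates. For Cyp2d26 the bases that GENCODE vM21 counts as part of the gene were left off, so 201 bases are printed instead of 250. The window of Cyp2d26 also holds a TATA box word, which lies in the part left off. Capitals mark matches on either strand to the searched words, which were TATAAA for the TATA box, GGGCGG for the GC box, GCGTG for the AhR core, AGATAA for GATA factors, TTTATNG for CDX2, CAAAGTCCA for HNF4 and GTTAAT for HNF1. The CDX2 and TATA words can overlap, and a DR1 repeat was also searched and found in no member window.
Cyp2c55 (chr19:39006769-39007018, plus strand): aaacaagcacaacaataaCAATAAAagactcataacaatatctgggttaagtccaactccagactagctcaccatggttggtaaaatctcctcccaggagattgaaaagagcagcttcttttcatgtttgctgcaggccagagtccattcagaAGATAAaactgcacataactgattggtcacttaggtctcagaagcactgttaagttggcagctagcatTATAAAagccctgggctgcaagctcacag
Cyp2c65 (chr19:39060756-39061005, plus strand): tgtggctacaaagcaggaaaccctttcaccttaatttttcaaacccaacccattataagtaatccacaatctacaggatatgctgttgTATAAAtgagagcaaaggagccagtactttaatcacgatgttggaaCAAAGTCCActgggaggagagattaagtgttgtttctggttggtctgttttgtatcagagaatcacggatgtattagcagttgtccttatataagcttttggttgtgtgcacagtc
Cyp2c68 (chr19:39741102-39741351, minus strand): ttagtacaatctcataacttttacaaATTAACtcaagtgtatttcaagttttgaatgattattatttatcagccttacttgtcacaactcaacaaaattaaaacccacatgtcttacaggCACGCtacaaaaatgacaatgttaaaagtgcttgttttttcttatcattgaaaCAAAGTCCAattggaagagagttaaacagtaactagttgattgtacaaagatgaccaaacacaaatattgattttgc
Cyp2c40 (chr19:39812815-39813064, minus strand): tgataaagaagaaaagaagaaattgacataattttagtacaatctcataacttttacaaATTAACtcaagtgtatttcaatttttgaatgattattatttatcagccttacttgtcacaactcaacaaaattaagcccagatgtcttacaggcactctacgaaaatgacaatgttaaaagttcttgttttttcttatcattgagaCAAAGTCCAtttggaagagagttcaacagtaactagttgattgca
Cyp2d26 (chr15:82794295-82794495, minus strand): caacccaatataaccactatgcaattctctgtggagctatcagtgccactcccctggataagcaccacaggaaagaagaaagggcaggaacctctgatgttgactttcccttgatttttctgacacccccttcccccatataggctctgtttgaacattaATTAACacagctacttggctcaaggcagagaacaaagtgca
Cyp1b1 (chr17:79715062-79715311, minus strand): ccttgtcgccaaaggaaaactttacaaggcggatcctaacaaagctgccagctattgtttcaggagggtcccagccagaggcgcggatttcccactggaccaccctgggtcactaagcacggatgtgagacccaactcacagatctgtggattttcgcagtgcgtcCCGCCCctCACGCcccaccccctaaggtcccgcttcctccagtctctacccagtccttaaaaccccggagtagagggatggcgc

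The RefSeq table held 82 windows of 250 bases for 72 of the 93 members, and 32851 such windows in all. The word of HNF4, a nuclear receptor of liver and gut epithelium, occurred in 9 of the 82 member windows (10.98%) and in 0.384% of all windows. Of those 9, 6 belong to the Cyp2c cluster (Cyp2c40, Cyp2c65, Cyp2c67, Cyp2c68, Cyp2c69 and Cyp2c70), whose members share sequence and are not independent, and the other 3 are Cyp3a11, Cyp3a16 and Cyp8b1. Cyp2c65 and Cyp2c68 were the only 2 of the 9 with a mean of 1 or more. Cyp2c69 and Cyp3a16 carried the word and were listed at 0 in all 5 libraries other than KO 1, which does not cover them. Cyp2c55, at 1.62 to 2.60, holds words for the TATA box, for GATA factors and for CDX2 but no HNF4 word in its window. The TATA box word occurred in 34.1% of member windows against 12.4% of all windows, and the AhR core word in 18.3% against 28.2%. A word match describes the letters and does not show a binding site.

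Between KO and WT, limma called none of the 59 tested members at a Benjamini-Hochberg adjusted p under 0.05, and 2 of them, Cyp2d10 and Cyp26c1, had an unadjusted p under 0.05. Both stood under 0.3 in every one of the 5 libraries. Over all 23408 genes tested, 1 gene passed (0.00427%) and 565 had an unadjusted p under 0.05 (2.41%), of which those higher in KO made up 1.73% of all genes. Without any 1 of the 5 libraries limma called 0 genes. The KO mean was higher in 44 of the 59 members (74.6%) and in 60.8% of all genes, with a median log2 difference of 0.067 for the members and 0.023 for all genes. Without KO 3 the members' count was 31 of 59 (52.5%) and their median 0.012, while 57.8% of all genes had a higher KO value, with a median of 0.023. At a mean of 1 or more, 19 of 28 members (67.9%) had a higher KO mean, close to the 62.7% of all genes at that level, and the groups did not overlap in 3 (10.7%, background 11.4%). Groups did not overlap with KO higher in 7 members (11.9%, background 9.76%) and with KO lower in 2 (3.39%, background 3.55%).

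**Figure D2:**
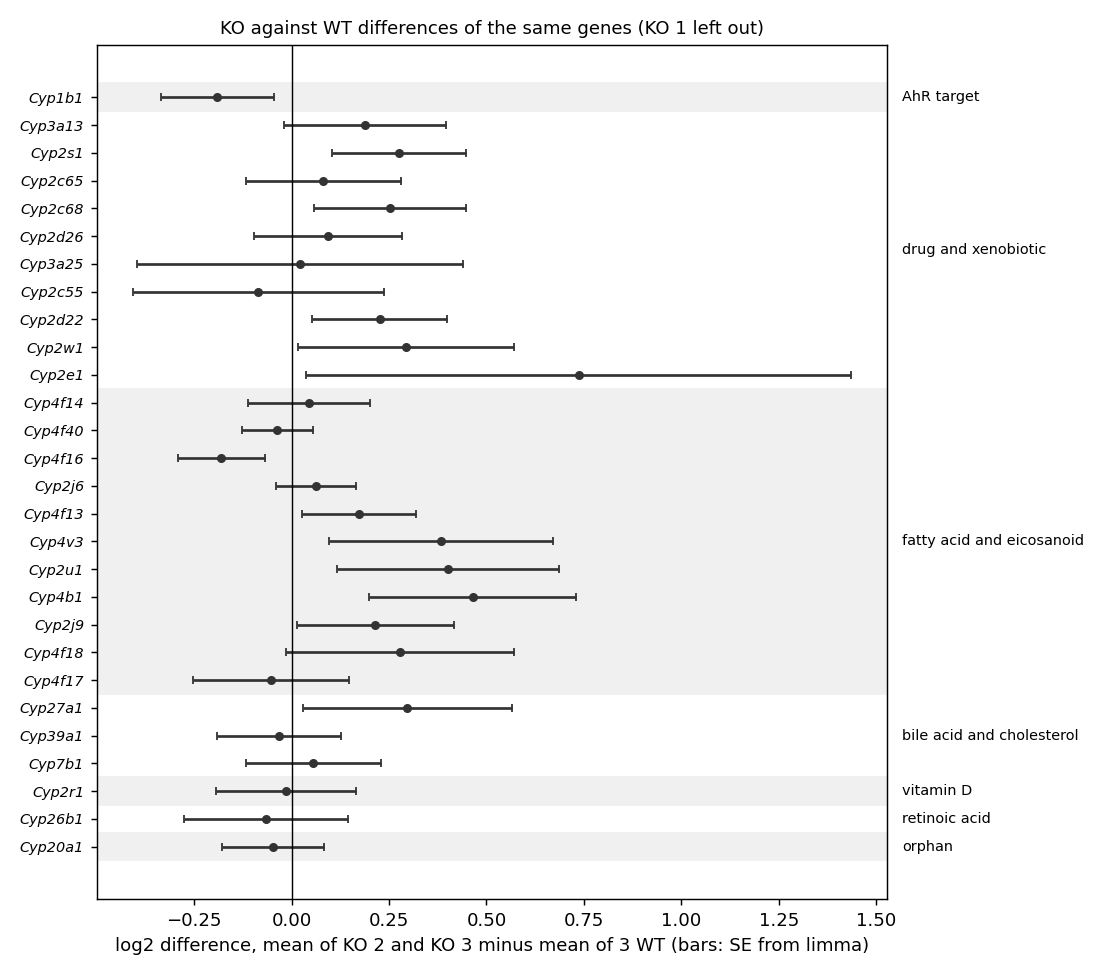
Difference of the mean of KO 2 and KO 3 minus the mean of the 3 WT libraries on the log2 scale (horizontal axis) for the 28 members with a mean of 1 or more (vertical axis); bars are standard errors from limma. The points run from -0.19 for Cyp1b1 to 0.74 for Cyp2e1, and no gene passed the adjusted threshold.

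Cyp1a1, Cyp1a2 and Cyp1b1 are the classic targets of the aryl hydrocarbon receptor, which senses pollutants as well as plant and microbial indoles. Cyp1a1 was low throughout, at 0.32, 0.17 and 0.20 in WT 1 to 3 and 0.18 and 0.39 in KO 2 and KO 3 (log2 difference 0.05 ± 0.08, SE, limma adjusted p = 0.99997). Its groups overlapped, and its sign turned to -0.05 without KO 3. Cyp1a2 was listed at 0 in 4 of the 5 libraries. Cyp1b1, which also acts on oestrogens and is common in stromal cells, stood at 2.15, 2.27 and 2.33 in the WT libraries and at 2.12 and 1.998 in KO 2 and KO 3. Both KO values lay below all WT values, KO 2 only just, a log2 difference of -0.19 ± 0.14 (SE, limma adjusted p = 0.99997).

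None of the 6 genes of the receptor's battery that were listed beside these enzymes passed by limma. The receptor Ahr itself was at 2.86 to 3.30 in the 5 libraries, and its repressor Ahrr at 1.17 to 1.32 in the WT libraries and 1.01 and 1.12 in KO 2 and KO 3. Ugt1a6a, a glucuronidation enzyme, was at 3.25 in KO 3 and at 2.07 to 2.25 in the other 4 libraries. The other battery genes did not share that pattern. Tiparp was lowest in KO 3, at 3.17 against 3.41 to 3.45. Gsta1 was at 3.35 in WT 3 and 3.34 in KO 3, and Nqo1 in KO 3 (3.61) lay inside the WT range.

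The drug and xenobiotic group had 45 members, of which 25 were tested, 10 reached a mean of 1 and none passed. Of the 25, 23 had a higher KO mean (92%, all genes 60.8%), with a median difference of 0.14. Without KO 3 the count was 15 of 25 (60%, all genes 57.8%) and the median 0.03. Cyp3a13, the gut form of the 3A enzymes that oxidise a large share of drugs (chr5:137892932-137921619, minus strand), was listed at 5.92, 5.32 and 5.80 in the WT libraries and 5.69 and 6.04 in KO 2 and KO 3. Its WT values alone spanned more than the difference of 0.19 ± 0.21 (SE) between the groups. Among the 3A genes typical of liver, Cyp3a25 was at 2.09, 2.85 and 1.79 in the WT libraries and 1.77 and 2.76 in KO 2 and KO 3. Cyp3a11 was at 0.04, 0.51 and 0.43 in the WT libraries, listed at 0 in KO 2 and at 1.13 in KO 3, so the 2 KO libraries were the lowest and the highest of the 5.

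Cyp2s1, an epithelial enzyme of the lung and gut that is also induced through the aryl hydrocarbon receptor (chr7:25802475-25816913, minus strand), was listed at 4.98, 4.91 and 4.45 in the WT libraries and at 4.996 and 5.11 in KO 2 and KO 3. Both KO values lay above all WT values, KO 2 only just, a log2 difference of 0.28 ± 0.17 (SE, limma adjusted p = 0.99997). WT 3 was the low library, without which the difference was 0.11, and GENCODE places a gene on the opposite strand, Gm26707, over exons of Cyp2s1.

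In the Cyp2c cluster, whose human relatives metabolise drugs and arachidonic acid, the genes printed above held either measurable values in all 5 libraries or values near 0. Because Cyp2c68 and Cyp2c40 share sequence, their values do not settle which of them gave the reads. Cyp2c65 was at 2.71, 2.80 and 3.13 in the WT libraries and 2.73 and 3.18 in KO 2 and KO 3. Cyp2c68 was at 2.45, 2.55 and 2.10 in the WT libraries and 2.46 and 2.77 in KO 2 and KO 3 (log2 difference 0.25 ± 0.19, SE, limma adjusted p = 0.99997). Without KO 3 the Cyp2c68 difference was 0.10, and without WT 3 it was 0.12. Cyp2c55, known as a microbiota- and PXR-responsive gene of the gut, ranged from 1.62 in KO 2 to 2.60 in KO 3, with WT at 1.93, 2.23 and 2.41 in between (-0.09 ± 0.32, SE). Cyp2c40 was listed at 0 in WT 1 and reached 0.42 at most. Cyp2c29, Cyp2c38, Cyp2c39, Cyp2c50, Cyp2c54 and Cyp2c69 were listed at 0 in all 5 libraries, and KO 1 does not cover them.

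Cyp2d22 and Cyp2d26 belong to the 2D subfamily, which oxidises basic drugs. Cyp2d26 stood at 2.50, 2.46 and 2.24 in the WT libraries and 2.26 and 2.72 in KO 2 and KO 3. Cyp2d22 stood at 1.77, 1.99 and 1.88 in the WT libraries and 1.94 and 2.27 in KO 2 and KO 3, a log2 difference of 0.23 ± 0.17 (SE, limma adjusted p = 0.99997). Without KO 3 the difference of Cyp2d22 was 0.06. The groups overlapped for both. Cyp2w1, which is active mainly in fetal gut and in gut tumours, was at 1.86, 1.76 and 1.20 in the WT libraries and 1.63 and 2.17 in KO 2 and KO 3. Cyp2b10, the classic target of CAR, was at 0.30, 0.31 and 0.46 in the WT libraries, 0.29 in KO 2 and 0.87 in KO 3.

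Cyp2e1, an ethanol- and acetone-oxidising enzyme that is abundant in liver and fat cells, varied most among the 28 genes (chr7:140763739-140774987, plus strand). It was listed at 0.77, 0.57 and 2.49 in the WT libraries and at 1.31 and 2.72 in KO 2 and KO 3. WT 3 and KO 3 were high and WT 1 and WT 2 low, so the groups overlapped and the KO against WT difference of 0.74 ± 0.70 (SE) was close to its error. Of the 28 members, 4 (14.3%) spanned 1 or more over the 5 libraries (Cyp2e1, Cyp3a25, Cyp4v3 and Cyp2u1), against 4.72% of all genes with a mean of 1 or more.

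The summed level of the 4 adipocyte markers ordered the libraries as Cyp2e1 did. It was 2.99, 2.20 and 4.16 in WT 1 to 3 and 3.197 and 4.33 in KO 2 and KO 3, with WT 3 and KO 3 on top. Of the single markers, Plin1 had that order too. Adipoq and Lep were highest in WT 3, Cidec was slightly lower in KO 2 than in WT 1, and Lep was lower in KO 3 than in WT 1. Adipoq ran from 1.03 to 2.97, Plin1 from 0.78 to 2.87, Cidec from 1.49 to 2.997 and Lep from 0.03 to 0.34, so none of the 4 was at 0. The 5 liver markers summed to 1.27 to 1.89 over the 5 libraries, highest in KO 2, and Alb was at 0 in WT 1 and WT 2 and at 0.34 or less in the others. The part of fat cells in the Cyp2e1 values was not tested. In whole tissue, fewer cells of a type and less RNA per cell cannot be told apart.

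**Figure D3:**
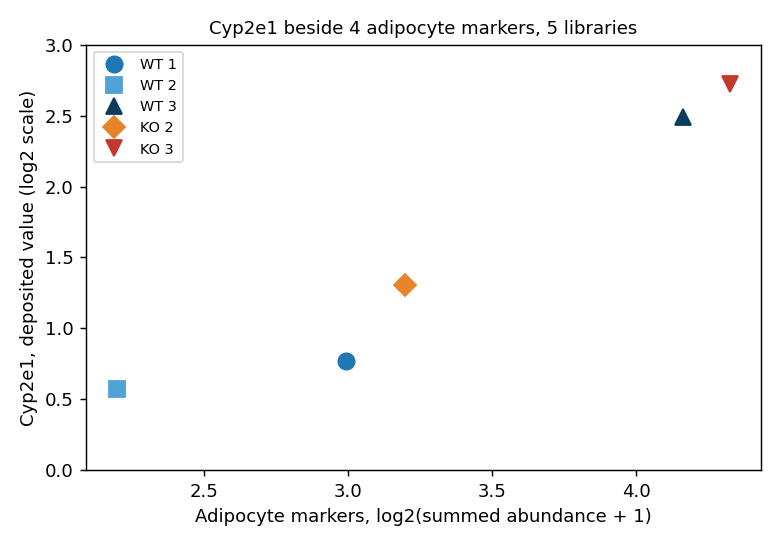
Cyp2e1 (vertical axis, log2 scale of the deposited table) against the summed abundance of Adipoq, Plin1, Cidec and Lep (horizontal axis, log2 of the sum plus 1), with 1 point per library. WT 3 and KO 3 lie at the upper right, at 2.49 and 2.72 for Cyp2e1, and the other 3 libraries at 1.31 or less.

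The fatty acid and eicosanoid group had 26 members, of which 18 were tested and 11 reached a mean of 1. None passed, 12 of the 18 had a higher KO mean (66.7%, all genes 60.8%) and the median difference was 0.05. Without KO 3 the count was 6 of 18 (33.3%, all genes 57.8%) and the median -0.04. Cyp4f14, which inactivates leukotriene B4 by omega-hydroxylation (chr17:32905070-32917342, minus strand), was listed at 6.95, 6.66 and 6.94 in the WT libraries and 6.71 and 7.08 in KO 2 and KO 3. Its relatives on chromosome 17 differed in spread. Cyp4f40 was at 5.89, 5.82 and 5.71 in the WT libraries and 5.83 and 5.71 in KO 2 and KO 3, a log2 difference of -0.04 ± 0.09 (SE). Cyp4f16 was at 5.31, 5.17 and 5.41 in the WT libraries and 5.23 and 5.01 in KO 2 and KO 3 (-0.18 ± 0.11, SE, limma adjusted p = 0.99997), and the difference was -0.07 without KO 3. Cyp4f13 was at 4.33, 4.24 and 3.89 in the WT libraries and 4.31 and 4.34 in KO 2 and KO 3. Cyp4f37, which shares sequence with Cyp4f16, was at 0.55, 0.68 and 1.04 in the WT libraries and 0.44 and 0.35 in KO 2 and KO 3, with both KO values below all WT values. Cyp2j6 spanned only 4.12 to 4.37 over the 5 libraries.

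Cyp4b1, Cyp2u1 and Cyp4v3 shared a different shape, with KO 3 alone above the rest. Cyp4b1, which hydroxylates short and medium fatty acids (chr4:115624725-115647723, minus strand), was at 2.05, 2.07 and 2.02 in the WT libraries, 2.08 in KO 2 and 2.94 in KO 3. Cyp2u1, a fatty acid hydroxylase, was at 2.89, 2.71 and 2.52 in the WT libraries, 2.65 in KO 2 and 3.56 in KO 3. Cyp4v3, the counterpart of the human enzyme lost in Bietti crystalline dystrophy, was at 3.39, 3.13 and 3.005 in the WT libraries, 3.10 in KO 2 and 4.02 in KO 3. KO 2 lay inside the WT range for Cyp2u1 and Cyp4v3 and just above it for Cyp4b1.

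The log2 differences were 0.46 ± 0.27 for Cyp4b1, 0.40 ± 0.29 for Cyp2u1 and 0.38 ± 0.29 for Cyp4v3 (SE, limma adjusted p = 0.99997 for each). Without KO 3 the difference was 0.03 for Cyp4b1, -0.06 for Cyp2u1 and -0.08 for Cyp4v3. GENCODE places exons of 4930534D22Rik on the strand opposite to Cyp2u1 and exons of Gm45753 on the same strand as Cyp4v3. Cyp4f18, a leukotriene-oxidising enzyme of leukocytes, had another order, with WT 2 (1.99) and KO 2 (2.04) high and WT 1 (1.31), WT 3 (1.25) and KO 3 (1.54) low. The 4 immune markers had the same 2 libraries on top, with summed levels of 6.70 in WT 2 and 7.03 in KO 2 against 5.50 to 5.69 in the other 3 libraries, and the part of immune cells in the Cyp4f18 values was not tested.

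Across the 28 members with a mean of 1 or more, KO 3 was the highest of the 5 libraries in 18 (64.3%), whereas it was highest in 24.4% of the 14311 genes at that level. KO 2, the other KO library, was highest in 1 member (3.57%, background 24.3%), WT 1 in 1 (background 12.1%), WT 2 in 3 (10.7%, background 22.2%) and WT 3 in 5 (17.9%, background 17.1%). WT 3 was lowest in 12 members (42.9%, background 28.3%). The median deviation of the members from the mean of the 5 libraries was 0.24 in KO 3, -0.05 in KO 2, -0.01 in WT 1, 0.02 in WT 2 and -0.13 in WT 3. Over all genes at that level the same medians lay between -0.04 and 0.03. Of 8 mature enterocyte markers, 6 were also highest in KO 3, while Anpep was highest in WT 1 and Fabp1 in WT 2. Their summed level was 10.97 in KO 3, 10.76 in WT 1, 10.52 in WT 3, 10.42 in KO 2 and 10.36 in WT 2, and none of the 8 was at 0. WT 1 was second for the markers and had a P450 median deviation of -0.01. The 4 enteric neuron markers were each highest in KO 3, with a summed level of 4.10 there against 3.44 to 3.85. The parts of enterocyte share and nerve tissue in the P450 values were not tested.

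**Figure D4:**
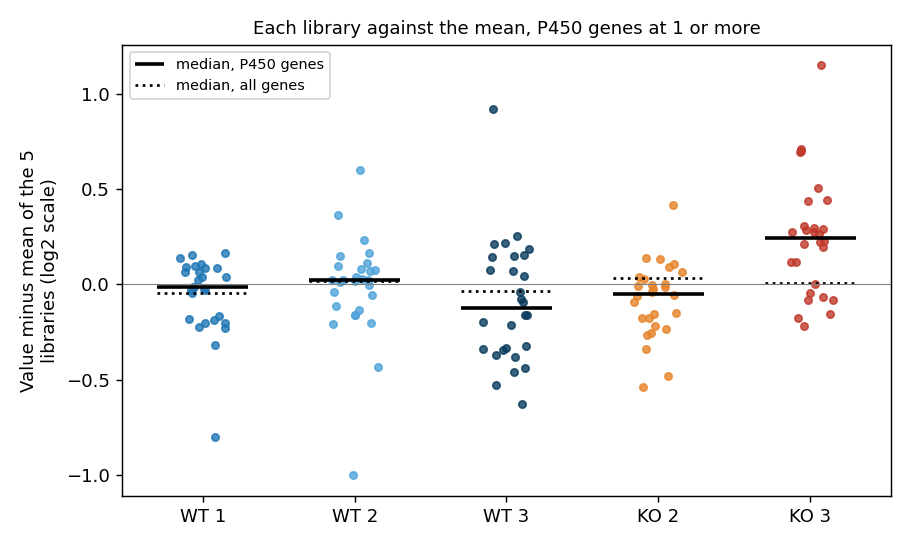
Value of each of the 28 members minus its mean over the 5 libraries (vertical axis, log2 scale) for each library (horizontal axis). Solid lines are medians of the P450 genes and dotted lines medians of all 14311 genes with a mean of 1 or more; the P450 median is 0.24 in KO 3 and between -0.13 and 0.02 in the other 4 libraries.

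The bile acid and cholesterol group had 6 members, of which 5 were tested and 3 reached a mean of 1. Cyp27a1, the mitochondrial sterol 27-hydroxylase that opens the alternative bile acid pathway (chr1:74713574-74737892, plus strand), was at 2.74, 2.94 and 2.08 in the WT libraries and 2.84 and 2.93 in KO 2 and KO 3, so WT 3 alone was low. Cyp39a1, an oxysterol 7-hydroxylase, was at 2.22, 2.35 and 2.02 in the WT libraries and 2.21 and 2.12 in KO 2 and KO 3. Cyp7b1, which acts on oxysterols after Cyp27a1, was at 1.47, 1.71 and 1.84 in the WT libraries and 1.76 and 1.70 in KO 2 and KO 3. Cyp46a1, the neuronal cholesterol 24-hydroxylase, stayed between 0.22 and 0.68, and Cyp8b1, the sterol 12-hydroxylase that carries the HNF4 word, between 0.04 and 0.11. For each of these 5 genes the groups overlapped.

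Of the enzymes of vitamin D and retinoic acid, 4 of 6 were tested and none passed by limma. Cyp2r1, the vitamin D 25-hydroxylase, was at 1.01, 1.20 and 1.41 in the WT libraries and 1.34 and 1.05 in KO 2 and KO 3 (log2 difference -0.01 ± 0.18, SE). Cyp27b1, which makes the active hormone, stayed between 0.11 and 0.27. Cyp24a1, which degrades the hormone, stood at 0.07 in WT 2 and was listed at 0 in WT 1, WT 3, KO 2 and KO 3. The receptor gene Vdr itself was at 5.55 to 6.09. Cyp26b1, a retinoic acid hydroxylase, was at 1.17, 1.35 and 1.16 in the WT libraries and 0.86 and 1.46 in KO 2 and KO 3 (-0.07 ± 0.21, SE, limma adjusted p = 0.99997). Its 2 KO values lay on either side of all WT values. Cyp26c1 was at 0.18, 0.04 and 0 in the WT libraries and 0.22 and 0.28 in KO 2 and KO 3, so both KO values lay above all WT values, with an unadjusted p of 0.0351 and an adjusted p of 0.99997 by limma.

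Steroid hormone enzymes were near 0 in the 5 libraries. Of 6 members, 4 were tested and none exceeded 0.27 in any of the 5 libraries. Cyp11b1, the 11-beta-hydroxylase that makes corticosterone, was at 0.09 to 0.26 and Cyp17a1 at 0.02 to 0.10. Cyp11a1, which starts all steroid synthesis from cholesterol, was at 0.19 in WT 1 and listed at 0 in WT 2, WT 3, KO 2 and KO 3. Cyp20a1, an orphan enzyme with no settled substrate, was even, at 2.51, 2.52 and 2.70 in the WT libraries and 2.54 and 2.51 in KO 2 and KO 3.

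The genes that serve P450 enzymes were also tested. Of 11 electron donor and haem genes in the table, none passed by limma and 1, Por, had an unadjusted p under 0.05. Por, the reductase that feeds every microsomal P450, was at 3.84, 4.10 and 3.98 in the WT libraries and 4.22 and 4.26 in KO 2 and KO 3. Both KO values lay above all WT values, a log2 difference of 0.26 ± 0.10 (SE, limma adjusted p = 0.99997). Alas1, which starts haem synthesis, had the opposite sign, at 4.98, 5.34 and 5.08 in the WT libraries and 4.94 and 4.91 in KO 2 and KO 3 (-0.21 ± 0.12, SE, limma adjusted p = 0.99997).

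None of 19 receptor and regulator genes passed, and none had an unadjusted p under 0.05. PXR (Nr1i2) was at 4.23 to 4.49, Hnf4a at 7.13 to 7.41 and Hnf4g at 5.84 to 6.20 over the 5 libraries. Nr0b2, the bile acid-induced repressor SHP, was at 1.25, 0.83 and 0.05 in the WT libraries and 0.17 and 0.16 in KO 2 and KO 3 (-0.54 ± 0.33, SE), with WT 3 below both KO libraries. Retinoid supply genes (8 tested) and P450 enzymes named otherwise (3 tested, with Cyp51, a sterol demethylase, at 5.01 to 5.42) held no call either.

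Among the 25 members that KO 1 covers, 21 were tested and 11 had a mean of 1 or more. After rescaling, KO 1 lay outside the range of the other 5 libraries for all 11 of these genes, 6 above and 5 below. The same held for 63.7% of the 6516 covered genes at that level, 21.5% above and 42.2% below. As deposited, without rescaling, 9 lay above, 1 below and 1 inside. These are values of 1 library, with no replicate check.

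Cyp2d26 stood at 4.73 in KO 1 against 2.24 to 2.72 in the other libraries, and Cyp4f14 at 8.20 against 6.66 to 7.08. These 2 were at least 1 above the range (18.2% of the 11, background 1.21%). Against the mean of the other 5, the gap was 2.30 for Cyp2d26 and 1.34 for Cyp4f14, and 3.35 and 2.42 as deposited. Cyp2d22 (2.79 against 1.77 to 2.27), Cyp4f13 (4.78 against 3.89 to 4.34), Cyp4f16 (5.72 against 5.01 to 5.41) and Cyp27a1 (3.11 against 2.08 to 2.94) were above it by less. Cyp4f40, in the same cluster as Cyp4f14, was at 5.69 against 5.71 to 5.89. Its place depends on the scaling, since it was at 6.76, above the range, as deposited, and at 5.82, inside it, with the factor of 1.94 taken from covered genes at 1 or more.

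On the low side, Cyp1b1 stood at 0.96 in KO 1 against 1.998 to 2.33, the 1 member at least 1 below the range (9.09%, background 5.42%). Its gap to the mean of the other 5 was -1.21, and -0.58 as deposited or -1.90 with the values taken as natural logs. Cyp4f17 (0.84 against 1.22 to 1.67), Cyp20a1 (2.07 against 2.51 to 2.70) and Cyp39a1 (1.72 against 2.02 to 2.35) were below it by less. Cyp2d34 and Cyp2d12, at 0.05 and 0.10, lay below 0.30 to 0.93 and 0.35 to 0.82, and Cyp2d9, at 0.07 to 0.58 elsewhere, was listed at 0. Cyp11b1 and Cyp11b2 lay above it, at 0.51 against 0.09 to 0.26 and at 0.22 against at most 0.14. The other 5 tested members under a mean of 1 lay inside the range. No background share is at hand for genes under a mean of 1, where values lie near 0.

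Some regulators on covered chromosomes also lay outside the range of the other 5 libraries in KO 1, as did 63.7% of all covered genes at a mean of 1 or more. CAR (Nr1i3) stood at 3.36 after rescaling against 0.69 to 1.38 and PXR at 4.69 against 4.23 to 4.49. The bile acid receptor gene Nr1h4 stood at 4.85 against 5.62 to 5.93. Rarg, Rarb and Rxrg lay below their ranges and Rara only just. Rarb and Rxrg have means under 1, a level that the share of 63.7% does not cover. Ahr, at 3.15 against 2.86 to 3.30, lay inside its range, as did Ahrr, Vdr, Rxrb and Ppara. Cyp2b10 and the other Cyp2b, Cyp2c and Cyp3a genes lie where KO 1 has no values.

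Marker genes moved with these differences. The 4 fibroblast markers summed to 6.93 in KO 1 against 8.37 to 8.91 elsewhere, and the 2 smooth muscle markers that it covers to 4.14 against 8.12 to 8.59, while the covered enterocyte marker Alpi stood at 7.57 against 5.66 to 6.49. None of these markers was at 0 in KO 1, except that Adipoq, the sole covered adipocyte marker, was listed at 0 against 1.03 to 2.97. The covered endothelial markers summed to 3.52 against 3.99 to 4.65, and the enteric neuron marker Prph stood at 0.53 against 1.80 to 2.55. The covered immune markers summed to 4.83 against 5.42 to 6.78, although Ptprc, at 3.61, lay inside 3.52 to 5.52. The pancreas marker Cela1, at 2.09, lay inside 1.88 to 2.29. KO 1 thus differs from the other libraries in markers of gut position, stroma and other cell types at once. Their parts in its P450 values cannot be told apart.

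**Figure D5:**
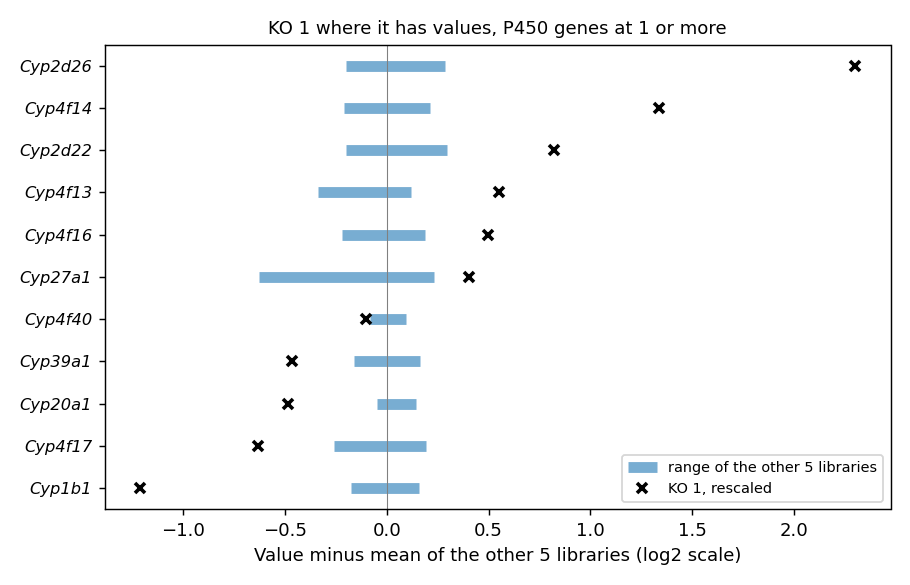
KO 1 after rescaling (crosses) and the range of the other 5 libraries (bars), each minus the mean of those 5 (horizontal axis, log2 scale), for the 11 covered members with a mean of 1 or more (vertical axis). Crosses run from -1.21 for Cyp1b1 to 2.30 for Cyp2d26 and all lie outside the bars.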

How the data were processed

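Poly(A) RNA was profiled in 6 libraries made with a stranded low-input kit, per the labels. The authors deposited 1 table of log values, taken here as log2(abundance + 1). The build is mm10, per the submitters' processing notes. The aligner, counter, strand setting, abundance unit, log base and constant have no statement in the sources used here, and depth is unknown, so no counting interval is given. Column names matched sample titles, and they name 1 lane for all libraries. Of 32245 rows, 26 with a date as symbol were left out. GENCODE vM21 (GRCm38, the assembly of mm10) placed all 93 members.

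A gene was tested if 2 or more libraries other than KO 1 listed it above 0 (23408 genes). KO 2 and KO 3 were compared with 3 WT libraries by the 2-sided moderated test of limma 3.58.1 (R 4.3.3; group alone in the model, spread trended on level), with Benjamini-Hochberg adjustment over all genes kept (threshold 0.05). The test was tried on simulated data. The KO 1 factor of 2.12 is the median ratio to the other libraries over 2160 covered genes at 4 or more. Members, role groups and gene lists were chosen with earlier results of these data known. Folds are quoted with tests for the 6 members with the smallest p in each direction at a mean of 1 or more and for Cyp1a1. Values of every library are given for members with high means and for named role groups. Further genes with values were chosen after their values were seen. Marker lists of pancreas, endothelium, enteric neurons and steroid cells were also summed. They ran from 1.92 to 2.33, 4.87 to 5.57, 3.44 to 4.10 and 1.55 to 1.94 over the 5 libraries.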

Additional observations from a re-analysis of the deposited data

Results flagged for a closer look

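KO 1 was left out of the main KO against WT test and entered only alternative settings of it. In KO 1, 2 members stood at least 1 above every other library, WT included. Cyp2d26 was at 4.73 after rescaling, where the WT libraries held 2.24 to 2.50, and Cyp4f14 was at 8.20, where they held 6.66 to 6.95. No test was run on these KO 1 values by themselves, since 1 library carries each value.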

How the results depend on the processing

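The 13 differences followed here are those chosen by smallest p at a mean of 1 or more, plus Cyp1a1. Other quoted differences, such as those of Cyp2e1 and Por, were not followed. All 13 remained without a call in every setting that tested them, and 180 of 194 alternative values kept their sign. Many of the 194 could not change. Other filters, no variance trend and, for genes KO 1 does not cover, its inclusion left the difference as it was. The replicate block repeats the values without WT 1, which has no same-numbered KO library in the fit. Cyp4f16 turned to 0.38 with KO 1 as deposited where covered and 0.022 with KO 1 rescaled. Cyp4f40 turned to 0.29 with KO 1 as deposited and 0.0039 with the replicate block, and ran from -0.097 to 0.023 over left-out libraries (positive without WT 1 or KO 3). Cyp20a1 turned from -0.048 in the main fit to 0.097 with KO 1 as deposited. Over left-out libraries it ran from -0.080 to 0.014 (without WT 3), Cyp2c55 from -0.57 to 0.40 (positive without WT 3 or KO 2), Cyp26b1 from -0.37 to 0.24 (without KO 2), Cyp2u1 from -0.056 (without KO 3) to 0.86, Cyp4v3 from -0.081 (without KO 3) to 0.85 and Cyp1a1 from -0.052 (without KO 3) to 0.16. No member was called under any setting. Over all genes, the count of 1 became 0 with KO 1 included (as deposited or rescaled), the replicate block, the stricter filter, an added constant of 0.1 or any 1 library left out (0 to 0), and 4 without a filter. The median member difference of 0.067 was 0.11 with KO 1 as deposited, 0.072 with KO 1 rescaled, 0.023 with median centring, 0.044 with quantile normalization, 0.014 without a filter, 0.087 with the stricter filter, 0.25 and 0.027 with added constants of 0.1 and 5, and 0.012 to 0.19 over left-out libraries. The 44 members with a higher KO mean became 38 with median centring, 41 with quantile normalization, 48 with KO 1 as deposited and 31 to 47 over left-out libraries. With other filters, which change the number of genes tested, the count was 51 of 93 without a filter and 19 of 28 with the stricter filter. Added after the data were seen, median centring left KO 3 highest in 17 of the 28 members, and of the 11 covered members, 11 lay outside the range in KO 1 with the values taken as natural logs, 10 with KO 1 as deposited and 10 with the factor from covered genes at 1 or more. Where leaving one out left a single KO library, the fit took its spread from the WT libraries. Deviations of same-numbered libraries correlated at 0.23, 0.47 and 0.07 in the genes that KO 1 covers, and at 0.27 and 0.33 for numbers 2 and 3 without KO 1. WT 3 and KO 3 did not correlate best with each other over covered genes, and number 3 fell under 0.1 there. The KO deviations there were taken from a mean that includes KO 1. Without KO 1, the deviations of KO 2 and KO 3 are each other's negative. The correlations thus cannot decide whether the numbers mark pairs, and the main fit did not take them as pairs.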
